A study of Mus musculus with 6 samples.

Results

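The protocadherin genes were followed through 37 probe sets, of 35556 on the array, that carry at least 1 gene symbol starting with Pcdh in the platform annotation. A probe set with several symbols was counted once. Of the 37, 22 belong to Pcdhb genes, 1 carries the symbols of 14 Pcdha genes together, and 14 belong to 12 non-clustered genes, with a pair of sets each for Pcdh9 and Pcdh15. No set was paired with a Pcdhg symbol in the annotation used here, so the Pcdhg genes were not analysed here. RNA came from colon tumors of 3-week-old mice, cut out by laser microdissection, and each of the 6 samples was run on 1 array (Affymetrix Mouse Gene 1.0 ST). The study names C57BL/6J for the parent line with floxed Tgfbr2, and no strain for the lines with floxed Apc or Cre. The 3 double knockout tumors were from animals of genotype CDX2P-G19Cre;Apcflox/flox;Tgfbr2flox/flox, and the 3 Apc knockout tumors came from CDX2P-G19Cre;Apcflox/flox animals, so both groups carry the Cre transgene and the floxed Apc alleles. Cre is driven by a fragment of the human CDX2 promoter that is active in colon epithelium, and a run of guanines in its coding sequence puts it out of frame until a chance frameshift restores it, so stromal and other cells without active Cre keep Apc and Tgfbr2. Values are the authors' RMA signals on the log2 scale, and differences are double knockout minus Apc knockout.

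Protocadherins are calcium-dependent adhesion proteins and form the largest branch of the cadherin superfamily. The clustered genes lie in tandem clusters named alpha, beta and gamma. Each Pcdha and Pcdhg gene supplies a variable exon that is spliced to constant exons shared by its cluster, whereas each Pcdhb gene is a single coding exon with a promoter of its own. Neurons switch on small, differing sets of these promoters, and the proteins bind between cells only when the sets match. The promoters are held by the insulator protein CTCF and cohesin when active and by DNA methylation when silent, and in human colorectal tumors they are often methylated. The non-clustered genes are scattered through the genome and act in adhesion, cell sorting and regulation of the actin cytoskeleton.

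Some facts of the arrays bear on all values. Median signals per array were 7.68 to 7.80. As a guide to signal without expression, the 95th percentile of 1376 probe sets of olfactory and vomeronasal receptors was 6.46 to 6.63 per array. Most of these receptors were assumed to be silent in colon, which was not tested, and none was left out. That percentile is called the receptor background here, and signals below it have an unknown share of background. Double knockout tumor 2 stood apart, with correlations of 0.956 to 0.968 with the other tumors, against 0.980 to 0.988 among the other 5. In that tumor a list of 10 markers of differentiated colonocytes had a mean signal 2.54 above tumors 1 and 3 of its genotype, 10 smooth muscle markers lay 1.91 above, and 11 crypt stem cell and Wnt target genes a difference of −2.24. All 10 markers of colon epithelium were above the receptor background in every tumor, with mean signals of 11.86 to 12.10 in double knockouts and 11.69 to 12.09 in Apc knockouts. Within that list Cdx2, an intestinal transcription factor, was at 11.18, 8.24 and 10.93 in double knockouts 1 to 3 and 10.08 to 10.89 in Apc knockouts, so double knockout tumor 2 was low for it. Tgfbr2 was at 10.60 ± 0.34 in double knockouts and 11.27 ± 0.15 in Apc knockouts (SD, n = 3 each), without overlap (log2 fold change −0.67, adjusted p = 0.821 from limma), and whether its probes lie in the deleted exons is not known here. Apc, targeted in both genotypes, differed by −0.25 (standard error 0.18) on the log2 scale. The fits were limma across 19506 probe sets that have a symbol and a mean signal of at least 5.88, the 20th percentile of the array, and 34 of the 37 Pcdh sets were among them. Those left out were Pcdhb9, Pcdhb10 and Pcdh11x. Precision is limited by how few arrays there are.

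The Pcdhb probe sets had lower signals almost throughout the gene cluster when Tgfbr2 was targeted along with Apc. Of 22 sets, 21 had a negative log2 fold change, where 47.7% of all tested sets did, and the median over the 22 was −0.57 (a fold of 1.49), where the median of all tested sets was 0.01. The range ran from −1.31 for Pcdhb12 to 0.04 for Pcdhb1. In 15 of the 22, every double knockout tumor was below every Apc knockout tumor, and 14 of these were tested, while 6.94% of all tested sets separated this way. Of the 20 tested Pcdhb sets, 14 were lower at an unadjusted p under 0.05 and 0 were higher, against 3.82% and 1.78% of all tested sets. None passed an adjusted p of 0.05 in limma (0% of all tested sets did), and the smallest adjusted p of a Pcdhb set was 0.821. By the methods' t-test 8 Pcdhb sets were lower at an unadjusted p under 0.05, as were 3.02% of all tested sets. The Pcdhb genes are paralogs of similar sequence, and how far the probes of a set also match other Pcdhb genes was not tested, so the 22 sets are not independent measurements.
The counts depended on single tumors. The number of Pcdhb sets lower at an unadjusted p under 0.05 was 9 without double knockout tumor 2, 8 without double knockout tumor 1, and 5 without either Apc knockout tumor 1 or Apc knockout tumor 3, where all tested sets gave 3.49%, 3.25%, 2.25% and 2.47%. It was 12 when double knockout tumor 3 was left out and 14 when Apc knockout tumor 2 was, against 5.16% and 4.37% of all tested sets. The median log2 fold change of the 22 sets stayed between −0.73 and −0.46 when any tumor was left out.

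**Figure D1:**
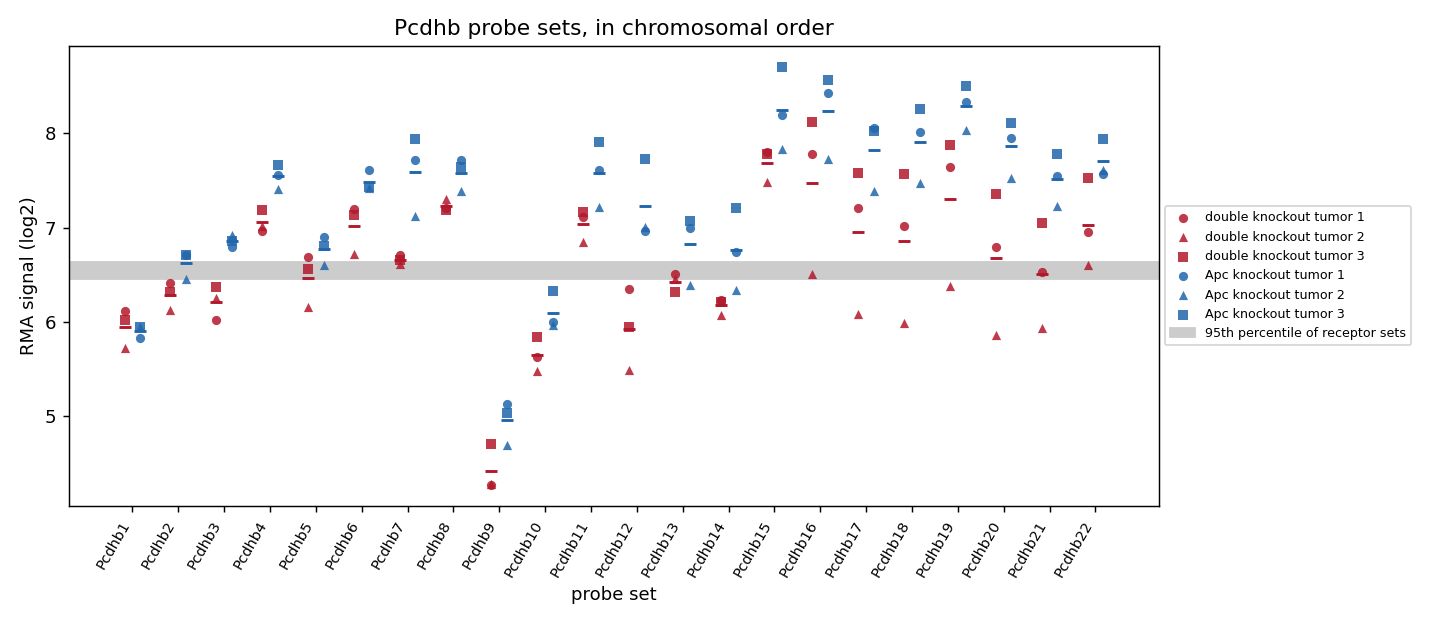
Log2 RMA signal (vertical axis) of the 22 Pcdhb probe sets in chromosomal order (horizontal axis), 1 point per tumor, with double knockout tumors in red left of Apc knockout tumors in blue and a bar at each group's mean of 3. The gray band is the range over arrays of the receptor background, 6.46 to 6.63. For 15 of the 22 sets all red points lie below all blue points, and from Pcdhb16 on the red triangle (double knockout tumor 2) lies below the other red points.

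Pcdhb12 had the largest difference of the family. Its signals were 6.35, 5.49 and 5.94 in double knockouts 1 to 3, against 6.97, 7.01 and 7.73 in Apc knockouts 1 to 3. All double knockout signals were below the receptor background and all Apc knockout signals above it. The difference was 2.47-fold lower (95% confidence interval 1.51 to 4.05, log2 fold change −1.31 with a standard error of 0.29, adjusted p = 0.821 in limma), and it was 1 of 4 Pcdhb sets (with Pcdhb18, Pcdhb20 and Pcdhb21) that were at least 2-fold lower at an unadjusted p under 0.05, where 0.62% of all tested sets were. Pcdhb12 is in the study's own list of changed genes, which was chosen on these tumors, so its direction is not independent evidence. Without it, 20 of the other 21 Pcdhb sets had negative log2 fold changes, with a median of −0.56.

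Pcdhb7 and Pcdhb3 separated the groups with little spread within one of them. Pcdhb7 was at 6.71, 6.61 and 6.66 in double knockouts, against 7.71, 7.12 and 7.93 in Apc knockouts. The double knockout signals varied by 0.05 (SD) and were just above the receptor background, and all 3 Apc knockout tumors were higher. Its log2 fold change was −0.93 (standard error 0.21). Pcdhb3 was at 6.02, 6.25 and 6.37 in double knockouts, against 6.79, 6.92 and 6.85 in Apc knockouts, which vary by 0.06 (SD). It was below the receptor background in every double knockout tumor and above it in every Apc knockout tumor. Its log2 fold change was −0.64 (standard error 0.12, unadjusted p = 0.0019, adjusted p = 0.821 from limma), the smallest unadjusted p among Pcdh sets. Pcdhb4, at 6.97, 7.02 and 7.18 in double knockouts and 7.56, 7.41 and 7.66 in Apc knockouts, was clear of the receptor background in all 6, with log2 fold change −0.49 (standard error 0.11). When probe sets were instead kept for a coefficient of variation (CV) under 20% within each genotype, Pcdhb3 and Pcdhb4 passed (adjusted p = 0.00922 for the first and 0.0458 for the second, from limma), as 0.506% of the sets kept did in the lower direction. That filter selects on the same spread within groups that the test then uses.

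The sets from Pcdhb16 to Pcdhb22, the end of the beta cluster, combined larger differences with a wider spread among double knockout tumors. This stretch was picked out after its values were seen. Its median log2 fold change was −0.98, against −0.49 for Pcdhb1 to Pcdhb15. Pcdhb20 was at 6.80, 5.87 and 7.36 in double knockouts, against 7.96, 7.52 and 8.10 in Apc knockouts, a difference of 2.28-fold (log2 fold change −1.19, standard error 0.38). Every double knockout tumor was lower, tumor 2 most of all. Pcdhb21 was at 6.53, 5.93 and 7.05 in double knockouts, against 7.55, 7.23 and 7.78 in Apc knockouts (log2 fold change −1.01, standard error 0.30). Pcdhb19 was at 7.65, 6.38 and 7.88 in double knockouts, against 8.33, 8.03 and 8.50 in Apc knockouts (log2 fold change −0.98, standard error 0.40). In both sets the groups did not overlap, and double knockout tumor 3 lay nearest to the Apc knockouts.
Pcdhb18 and Pcdhb16 did overlap. Pcdhb18 was at 7.02, 5.99 and 7.57 in double knockouts, against 8.01, 7.47 and 8.25 in Apc knockouts (log2 fold change −1.05, standard error 0.42). Pcdhb16 was at 7.78, 6.51 and 8.12 in double knockouts, against 8.42, 7.73 and 8.56 in Apc knockouts (log2 fold change −0.77, standard error 0.45). In each, double knockout tumor 3 was above Apc knockout tumor 2. Pcdhb22, at 6.95, 6.60 and 7.52 in double knockouts and 7.57, 7.61 and 7.94 in Apc knockouts, had a log2 fold change of −0.68, and Pcdhb17 overlapped, at 7.21, 6.08 and 7.58 in double knockouts against 8.05, 7.39 and 8.02 in Apc knockouts.
In all 7 of these sets the lowest signal was that of double knockout tumor 2. Without it, the log2 fold change was −0.29 for Pcdhb16, −0.43 for Pcdhb17, −0.62 for Pcdhb18, −0.52 for Pcdhb19, −0.78 for Pcdhb20, −0.73 for Pcdhb21 and −0.47 for Pcdhb22. The median of the stretch was then −0.52, with all 7 still negative, and that of Pcdhb1 to Pcdhb15 was −0.44.

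The remaining Pcdhb sets had log2 fold changes of −0.59 to 0.04. Pcdhb15, named for its high mean signal, was at 7.80, 7.48 and 7.78 in double knockouts, against 8.20, 7.83 and 8.70 in Apc knockouts. The groups did not overlap but were close, and the log2 fold change of −0.56 (standard error 0.23) was −0.33 without Apc knockout tumor 3. Pcdhb14 had a log2 fold change of −0.59, or −0.36 without the same tumor. Pcdhb2, Pcdhb6, Pcdhb8, Pcdhb10 and Pcdhb11 also separated the groups, with log2 fold changes of −0.34, −0.47, −0.35, −0.45 and −0.54. Pcdhb5, Pcdhb9 and Pcdhb13 overlapped, at −0.30, −0.53 and −0.40. Pcdhb1 was the exception in direction, at 6.11, 5.73 and 6.02 in double knockouts and 5.83, 5.95 and 5.94 in Apc knockouts. Its signals were below the receptor background in all 6 tumors, as were those of Pcdhb9 and Pcdhb10. Of the 22 sets, 7 were above the receptor background in all 3 double knockout tumors, and 16 in all 3 Apc knockout tumors.

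Genes around the clusters had no common shift. They were placed by their order in RefSeq's annotation (GRCm38.p6), in which the clustered genes lie on chromosome 18, and 14 neighbors were taken, the nearest 6 protein-coding genes outside the family on each side and Slc25a2 and Taf7 between the beta and gamma clusters. None of the 14 was past an unadjusted p under 0.05 in limma, 8 were lower, and the median log2 fold change was −0.02, with a range of −0.35 to 0.25. Slc25a2, a mitochondrial ornithine transporter gene, was at 6.45, 6.26 and 6.17 in double knockouts and 6.25, 6.73 and 6.56 in Apc knockouts. Taf7, a subunit of the general transcription factor TFIID, was at 7.07, 7.16 and 7.11 in double knockouts and 6.73, 7.23 and 6.63 in Apc knockouts. Both overlapped between groups. Beyond the gamma cluster, Diaph1, a formin that nucleates actin, and Hdac3, a histone deacetylase, had log2 fold changes of 0.06 and −0.08 (standard errors 0.13 and 0.12). The next genes Rell2, Fchsd1 and Arap3 were lower, at −0.28, −0.29 and −0.35, and Dele1 was at 0.10. Rell2 was the 1 neighbor of 14 whose groups did not overlap, where 6.94% of all tested sets separated in that direction.
On the other side of the beta cluster, the Pcdha set did not separate the groups. It was at 5.97, 6.12 and 6.04 in double knockouts and 6.13, 5.94 and 6.28 in Apc knockouts, below the receptor background in all 6. Its log2 fold change was −0.07 (95% confidence interval −0.36 to 0.22), or 0.01 without Apc knockout tumor 3. A set shared by 14 genes gives their signal together, and a change in single Pcdha genes could not be read from it.

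**Figure D2:**
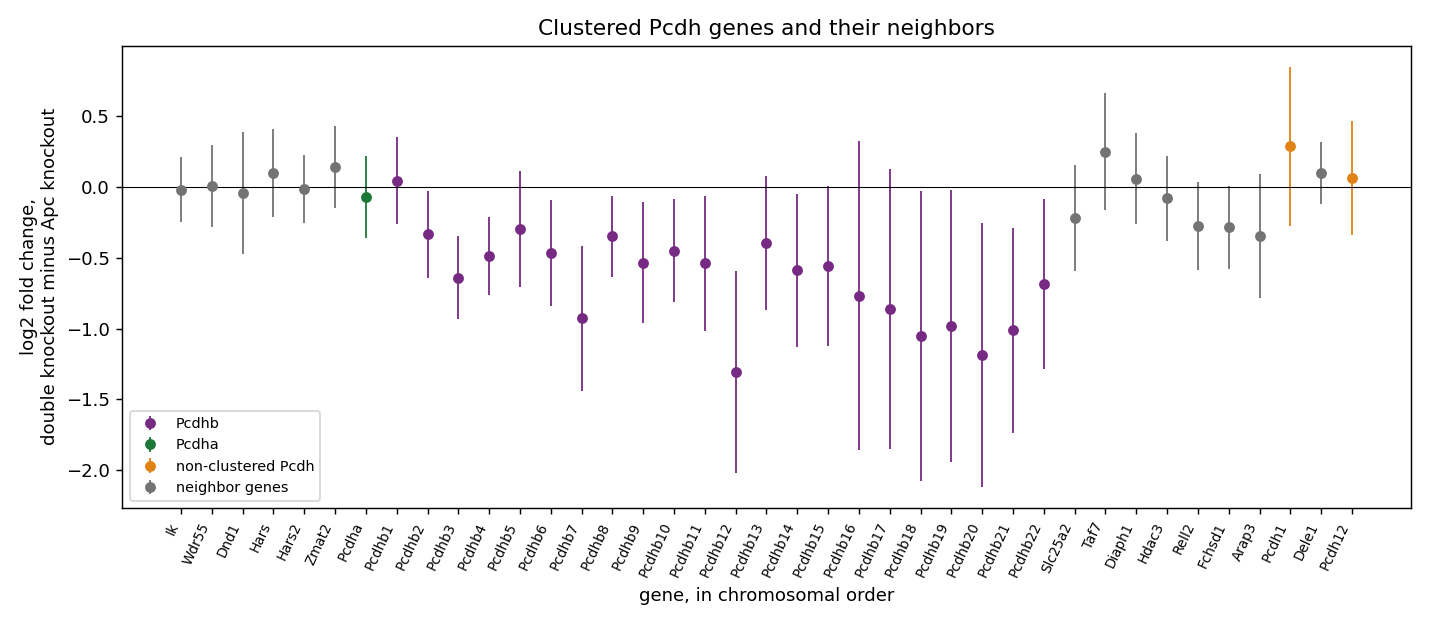
Log2 fold change, double knockout minus Apc knockout (vertical axis), with 95% confidence intervals from limma, of Pcdh probe sets on chromosome 18 and of 14 neighbor genes, in chromosomal order at equal spacing (horizontal axis). The Pcdhb sets from Pcdhb2 to Pcdhb22 lie between −1.31 and −0.30, and the neighbor genes between −0.35 and 0.25.

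The non-clustered genes showed no common direction. Of 14 sets, 6 had a negative log2 fold change and 8 a positive one, with a median of 0.09. In limma 0 of the 13 tested were past an unadjusted p under 0.05 in either direction. By the test of the study's methods, 11 Pcdh sets were past that threshold, 8 of them Pcdhb sets. The others were non-clustered sets, so the count of 0 holds for limma only. The groups did not overlap in 1 set that was lower and 2 that were higher, where 6.94% and 5.25% of all tested sets did so, and the largest difference among these 3 was 0.17. Leaving out double knockout tumor 2 gave a median of −0.05, and leaving out Apc knockout tumor 2 gave −0.06, so its sign was not stable.

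Set beside each other per tumor, the Pcdhb and non-clustered groups diverged. The clustered sets are the 22 Pcdhb sets and the 1 Pcdha set, so they stand for Pcdhb almost alone. For each set the mean of its 6 signals was subtracted first. The median deviation of the Pcdhb sets was −0.22, −0.48 and −0.09 in double knockouts 1 to 3, against 0.33, 0.01 and 0.59 in Apc knockouts 1 to 3. That of the non-clustered sets was 0.04, 0.05 and 0.04 in double knockouts and −0.03, −0.15 and 0.17 in Apc knockouts. The Pcdhb medians did not overlap between genotypes and the non-clustered medians did. The median signal of all 23 clustered sets minus that of the 14 non-clustered sets was −0.63, −1.21 and 0.13 in double knockouts, against 0.31, 0.16 and 0.18 in Apc knockouts, so double knockout tumor 3 came close to Apc knockout tumor 2. Signals of different probe sets are not levels that can be compared, so only the change of this difference between tumors is read. Its mean in double knockouts minus that in Apc knockouts was −0.78, or −0.46 without double knockout tumor 2.
The order of tumors within a genotype was also shared among Pcdhb sets. Double knockout tumor 2 was the lowest of all 6 in 17 of 22, where it was the lowest in 28.3% of all tested sets, and Apc knockout tumor 3 was the highest in 15 of 22, where it was the highest in 24.1%. Among the Apc knockout tumors, tumor 2 was the lowest in 18 of 22.

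**Figure D3:**
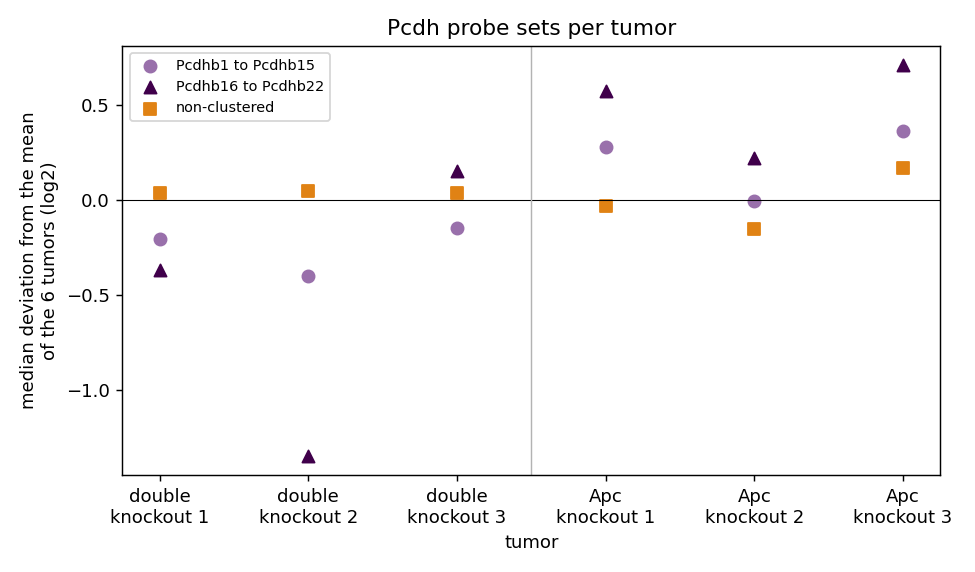
Median deviation of probe sets from their mean over the 6 tumors, on the log2 scale (vertical axis), in each tumor (horizontal axis, double knockout tumors on the left), for Pcdhb1 to Pcdhb15, Pcdhb16 to Pcdhb22 and the 14 non-clustered sets. Both Pcdhb groups are lower in every double knockout tumor than in every Apc knockout tumor, with Pcdhb16 to Pcdhb22 at −1.34 in double knockout tumor 2, while the non-clustered sets stay between −0.15 and 0.17.

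Among single non-clustered genes, Pcdh7 had the largest difference. Pcdh7 is an adhesion protein that binds and inhibits protein phosphatase PP1 alpha. Its signals were 9.95, 9.40 and 9.84 in double knockouts, against 10.63, 9.83 and 10.98 in Apc knockouts. Apc knockout tumor 2 lay among the double knockout tumors, so the groups overlapped. The log2 fold change was −0.75 (95% confidence interval −1.52 to 0.01, adjusted p = 0.821 from limma), and −0.50 without Apc knockout tumor 3. Pcdh17, which recruits the WAVE actin regulators to cell contacts, was at 7.91, 7.80 and 8.57 in double knockouts and 8.40, 8.09 and 8.74 in Apc knockouts, a log2 fold change of −0.31 (standard error 0.26) with overlap, and −0.15 without Apc knockout tumor 3. Pcdh19, an X-linked gene mutated in a form of human epilepsy, ranged from 6.80 to 7.85 in double knockouts and from 7.16 to 8.57 in Apc knockouts, and its log2 fold change of −0.20 was 0.27 without Apc knockout tumor 3 and 0.11 without double knockout tumor 2.
Pcdh1, Pcdh18 and Pcdh12 had positive log2 fold changes, none past the test. Pcdh1, known from epithelial adhesion in the airway, was at 9.24, 9.17 and 9.14 in double knockouts, against 9.15, 9.18 and 8.36 in Apc knockouts. A single Apc knockout tumor was low, and without it the log2 fold change of 0.29 was 0.02. Pcdh18, which binds the adaptor Dab1, was at 8.56, 8.93 and 8.52 in double knockouts and 8.48, 7.88 and 8.76 in Apc knockouts (log2 fold change 0.29, standard error 0.25). Here Apc knockout tumor 2 was low, and without it the value was 0.05. Pcdh12, found in endothelium, was at 7.61 to 7.75 in double knockouts and 7.40 to 7.97 in Apc knockouts.
Both Pcdh9 sets varied most among double knockouts. The first was at 7.49, 8.31 and 6.69 in double knockouts and 7.56, 6.95 and 7.61 in Apc knockouts, and the second at 7.11, 8.08 and 6.34 in double knockouts and 7.21, 6.60 and 7.37 in Apc knockouts. In each, tumor 2 of the double knockouts was highest of all 6 and tumor 3 lowest, the reverse of their order in the sets from Pcdhb16 to Pcdhb22. Their log2 fold changes of 0.13 and 0.12 were −0.28 and −0.33 without double knockout tumor 2.

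**Figure D4:**
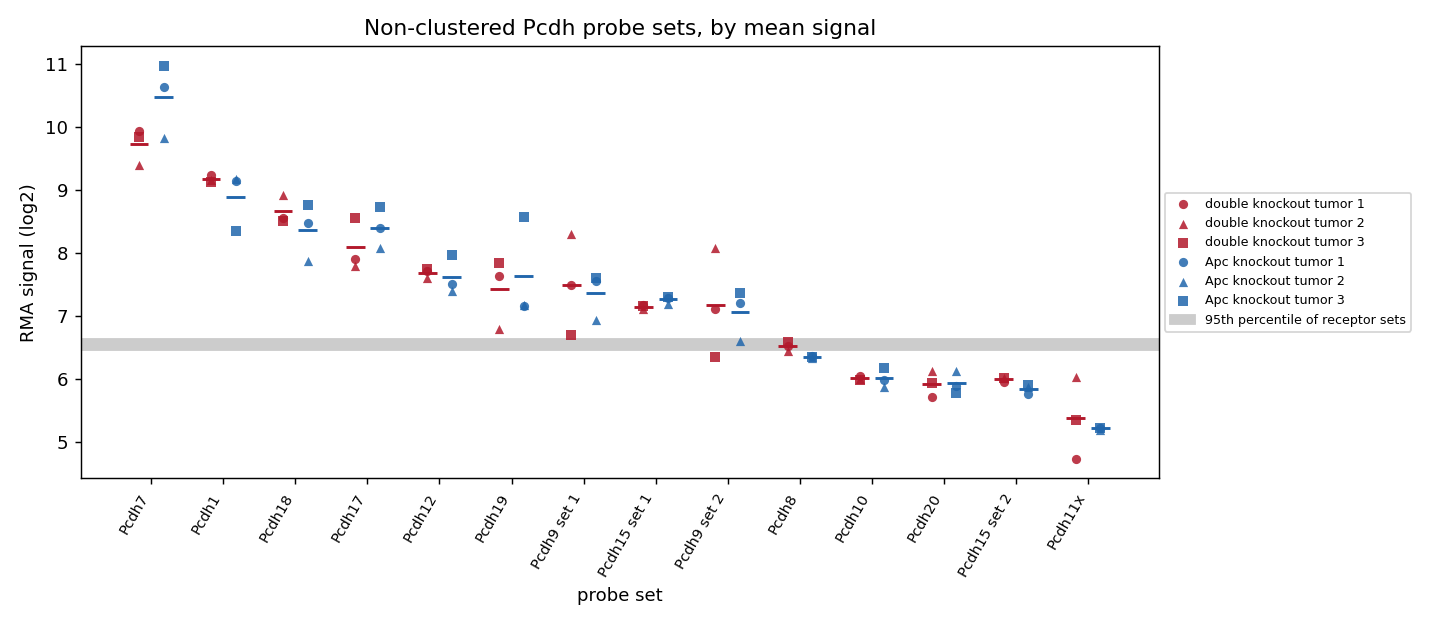
Log2 RMA signal (vertical axis) of the 14 non-clustered Pcdh probe sets, ordered by mean signal (horizontal axis), 1 point per tumor, with double knockout tumors in red left of Apc knockout tumors in blue and a bar at each group's mean of 3. The gray band is the receptor background, 6.46 to 6.63. The groups overlap for Pcdh7, Pcdh1, Pcdh18 and Pcdh17, and the sets right of Pcdh9 set 2 lie within or below the band.

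The other non-clustered sets were dim or close between groups, among them genes known from the nervous system and the ear. Pcdh8, known in rat as an activity-induced protein of synapses, was at 6.53, 6.45 and 6.59 in double knockouts and 6.37, 6.33 and 6.35 in Apc knockouts (log2 fold change 0.17, standard error 0.09). The groups did not overlap, at signals around the receptor background. Pcdh15, part of the tip link of sensory hair cells, pointed both ways, at 7.12 to 7.17 in double knockouts and 7.20 to 7.31 in Apc knockouts in its first set, and at 5.96 to 6.02 in double knockouts and 5.77 to 5.90 in Apc knockouts in the second. Pcdh10, Pcdh20 and Pcdh11x were below the receptor background in all 6 tumors, and their groups overlapped.

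The promoters of the non-clustered genes at the ends of this range are shown, since they can be read beside the genes' differences. Sequences are from RefSeq (GRCm38.p6), from 250 bases before to 50 after the start that the promoter table uses, and 9 of the 12 non-clustered genes had 1 or more. That start is not always the outermost one of the gene record, and it lies 1936 bases downstream of it for Pcdh7 and 67 for Pcdh18, so sequence at other starts was not searched. Capitals mark CAGAC on either strand (written GTCTG on the opposite one), the short core of Smad binding elements.
Pcdh7 (log2 fold change −0.75), chr5:57717831-57718130, plus strand: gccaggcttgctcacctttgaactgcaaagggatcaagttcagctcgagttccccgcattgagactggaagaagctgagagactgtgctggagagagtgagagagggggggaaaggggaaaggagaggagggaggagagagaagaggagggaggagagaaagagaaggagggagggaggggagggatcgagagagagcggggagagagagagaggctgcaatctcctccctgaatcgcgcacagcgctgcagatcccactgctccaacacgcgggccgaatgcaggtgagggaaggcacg
Pcdh18 (log2 fold change 0.29), chr3:49757267-49757566, minus strand: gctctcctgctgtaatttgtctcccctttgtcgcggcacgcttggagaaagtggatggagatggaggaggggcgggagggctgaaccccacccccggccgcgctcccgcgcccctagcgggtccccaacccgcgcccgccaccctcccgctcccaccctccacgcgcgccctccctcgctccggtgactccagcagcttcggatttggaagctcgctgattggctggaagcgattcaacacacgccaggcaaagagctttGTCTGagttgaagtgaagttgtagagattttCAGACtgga
The Pcdh7 window held 0 matches and the Pcdh18 window 2. A match was found in 5 of 10 non-clustered promoters and in 49.6% of 32851 promoters of the same length, so the share was near that of all promoters. A match of these letters is not a binding site.

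Regulators and partners of protocadherins were described as lists. Of 16 measured regulators of the clustered genes, 10 had a negative log2 fold change and 6 a positive one, and the median was −0.02. Ctcf, the insulator protein at these promoters, was at −0.02 (standard error 0.11), and the cohesin subunits Rad21, Smc1a and Smc3 were at 0.05, 0.08 and 0.09. Smchd1, a chromatin protein that represses the clustered genes, was at −0.07, and the histone methyltransferase gene Setdb1 at −0.09. The DNA methyltransferase genes Dnmt1, Dnmt3a and Dnmt3b were at 0.06, −0.02 and −0.20. Dnmt3b had a standard error of 0.22, and its value was 0.02 without double knockout tumor 2. Rest, a repressor of neuronal genes, was the 1 regulator past an unadjusted p under 0.05, at 10.38, 9.89 and 10.39 in double knockouts, against 10.52, 10.60 and 10.79 in Apc knockouts (log2 fold change −0.42, adjusted p = 0.821 from limma). This is 1 of 16, where 3.82% of all tested sets were lower at that threshold.
Of 18 measured partners, 10 were lower, with a median of −0.02, and Abi2 of the WAVE complex (−0.59) and Dab1 (−0.60) were lower at an unadjusted p under 0.05 (2 of 18, against 3.82% of all tested sets). Of 24 other cadherin genes, 13 were lower, with a median of −0.05, and 3 of the 24 were lower at an unadjusted p under 0.05, against the same 3.82%. Those were Cdh13, a cadherin anchored by GPI, at 9.56, 7.82 and 9.85 in double knockouts, against 10.81, 10.24 and 10.84 in Apc knockouts, Cdh3, or P-cadherin (log2 fold change −1.16), and Celsr2, an atypical cadherin of planar polarity (−0.59). E-cadherin (Cdh1), which holds epithelial cells together, was at 0.07 (standard error 0.13).

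Markers of other cells in the tumors are given beside the Pcdhb values, as mean signals over each list. In microdissected tissue measured as a whole, fewer cells of a type, less RNA per cell and a difference in what was cut out cannot be told apart. The 8 fibroblast markers were at 10.79, 10.69 and 10.19 in double knockouts 1 to 3 and 10.85, 10.35 and 11.14 in Apc knockouts 1 to 3, and 6 of 8 had a negative log2 fold change, with a median of −0.27. Among Apc knockout tumors this is the order of the Pcdhb medians, with tumor 3 highest and tumor 2 lowest. Among double knockout tumors the list means had another order, with tumor 3 lowest for fibroblast markers and highest for Pcdhb sets. Single markers varied: double knockout tumor 3 was lowest of all 6 tumors for 3 of the 8, and highest of the double knockouts for 2. Of 10 enteric neuron and glia markers, 5 had negative and 5 positive log2 fold changes, with a median of 0.02, and Elavl4, Tubb3 and Gfap were below the receptor background in all 6 tumors. Uchl1 was lower at an unadjusted p under 0.05 (log2 fold change −0.67), 1 of the 10 where 3.82% of all tested sets were. All 10 smooth muscle markers had positive log2 fold changes (median 0.58), with list means of 8.71, 10.35 and 8.16 in double knockouts and 8.72, 8.15 and 8.75 in Apc knockouts, so that the excess was in double knockout tumor 2. Of 10 markers of differentiated colonocytes, 9 were positive (median 0.48), with list means of 9.57, 11.48 and 8.30 in double knockouts and 9.40, 8.34 and 9.13 in Apc knockouts, and the same tumor was the high one. The colon epithelium list had a median of 0.10. The 7 endothelial markers (median 0.01) were at 8.71 to 8.91 in double knockouts and 8.55 to 9.14 in Apc knockouts, and the 6 macrophage markers (median 0.07) at 9.01 to 9.71 in double knockouts and 9.19 to 9.55 in Apc knockouts. All 8 neutrophil markers had negative log2 fold changes (median −1.28, 3 of the 8 at an unadjusted p under 0.05 in limma, against 3.82% of all tested sets). Their list means were 7.66, 9.07 and 8.38 in double knockouts against 9.88, 9.70 and 9.08 in Apc knockouts. The groups overlapped in 7 of the 8, and Csf3r was at −0.02 (standard error 0.17). Of all 6 tumors, Ly6g was highest in double knockout tumor 2 and Mmp9 in double knockout tumor 3. The Wnt target and stem cell list was at 11.44, 9.28 and 11.60 in double knockouts and 11.89, 11.55 and 11.77 in Apc knockouts, with 10 of 11 negative (median −1.04), lowest in double knockout tumor 2, as were the sets from Pcdhb16 to Pcdhb22. The part of these cells in the Pcdhb differences was not tested.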

How the data were processed

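Arrays of 3 double knockout and 3 Apc knockout tumors were used, grouped by the sample titles. The labels number the replicates and do not say outright that each is a separate mouse, so p-values measure the spread between these samples. The authors processed the arrays with RMA in GeneSpring GX (background correction, quantile normalization and a summary of each probe set), and deposited them as log2 values. The annotation build is not given in the sources used here. Of 35556 probe sets, 21789 have 1 gene symbol, 1621 several and 12146 none in the platform annotation.

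Sets that have a symbol and whose mean of 6 signals reached the 20th percentile were fitted with limma 3.58.1 in R 4.3.3 (two-sided, without covariates), with Benjamini-Hochberg adjustment over all 19506. The methods' 20% cut-off names no measure. Group medians are over all members, tested or not, and carry no test. With 3 tumors per genotype the smallest two-sided exact permutation p is 0.1, so none is printed.

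The members and lists were chosen with earlier results of these data known. Named sets were, in each group, the 3 brightest, the 4 with the smallest p and the 4 with the largest difference, and Pcdhb12. Other Pcdhb sets were named after their values were seen, to account for every member. For lists, each gene was read from its brightest single-symbol set, and listed genes with no such set were not used here. Alternatives were other filters, tests, scalings and variance models, the replicate block and leaving out each tumor. Background correction could not be varied on RMA values.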

Additional observations from a re-analysis of the deposited data

How the results depend on the processing

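No probe set of the array passed the adjusted threshold in limma, in the methods' t-test or under any alternative except the filter on the coefficient of variation, under which 107 of 15417 sets passed, 2 of them Pcdh sets (Pcdhb3 and Pcdhb4). That filter kept 15 of the 37 Pcdh sets, and 8 of them were at an unadjusted p under 0.05, against 14 with the filter on level. A 40th percentile filter kept 19 Pcdh sets and also gave 8. With 1 tumor left out the count was 5 to 15. The number of Pcdhb sets whose groups did not overlap was 15 to 21 with 1 tumor left out, where 9.74% to 14.3% of all tested sets separated in the same direction, against 6.94% with all 6 tumors (an alternative chosen after seeing the data). Leaving out a tumor cannot make separated groups overlap. The count therefore could not fall below the 15 of the full data, and it is no check of stability. The median log2 fold change of the non-clustered sets was −0.027 at the 40th percentile filter (8 sets) and −0.062 to 0.17 with 1 tumor left out. The Pcdha value was −0.158 to 0.012 with 1 tumor left out, and its sign turned without Apc knockout tumor 3. Of 251 alternative values of 18 named sets, 248 kept their direction and side of the threshold. Alternatives that change only the filter, the test, the variance model or the replicate block leave the log2 fold change as it was. Its direction could not turn there, so this count is not a measure of stability. The labels do not say whether the replicate numbers pair the samples. Same-numbered tumors had correlations of deviations of −0.20, −0.065 and 0.09, and differently numbered ones −0.21 to 0.26. With 3 tumors per genotype these values cannot decide it. With the number as a replicate block 17 Pcdh sets were at an unadjusted p under 0.05 and 0 passed the adjusted threshold. Where a cause is not given by the construction of an alternative (fewer sets or fewer tumors), the cause was not tested. Dim signals, near the receptor background for many Pcdhb sets in double knockout tumors, limit the size of difference that can be read.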
